A study of Mus musculus with 6 samples.

Results

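The 10 genes described here carry arachidonic acid into prostaglandins and leukotrienes: Pla2g4a, Ptgs1, Ptgs2, Ptges, Ptges2, Ptges3, Alox5, Alox5ap, Lta4h and Ltc4s. They were chosen by name as enzymes and helper proteins of these pathways, with earlier results of these data known. They are 10 of the 55536 genes in the files, of which 15376 were measured well enough to test. All 10 were among those tested. The cells were RAW264.7, a mouse macrophage line established from a virus-induced tumour and widely used to study inflammation. The labels give C57BL/6 as the background strain, although the line is generally described as derived from a BALB/c mouse. Of the 6 libraries, 3 came from control cells, which received the buffer PBS (phosphate-buffered saline), and 3 from cells given titanium (Ti) particles, debris of the kind that implants shed. Neither a dose nor an exposure time is given in the sources used here. The labels do not say whether the replicates were separate cultures, so a p-value here measures only the spread between these libraries, which may be technical.

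Eicosanoids are short-lived lipid signals made from arachidonic acid, a fatty acid that cytosolic phospholipase A2 cuts from membranes. In the cyclooxygenase branch, Ptgs1 or Ptgs2 turns it into prostaglandin H2, and terminal synthases make prostaglandin E2 and the other prostanoids from that. In the lipoxygenase branch, 5-lipoxygenase with its activating protein makes leukotriene A4, which becomes either leukotriene B4, a neutrophil attractant, or the cysteinyl leukotriene C4. Macrophages are a known source of both kinds, and cyclooxygenase-2 is known as the form that inflammatory stimuli induce.

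The values are estimated counts per transcript, scaled by the ratio of exon length to genomic span. They were added up for each gene and are given as CPM, that is counts scaled to 1000000 of the TMM-scaled library size. The rescaled counts of the annotated transcripts summed to between 37686020 and 60242937 per library. A count of 3, taken as the detection floor for counting error only, was worth 0.0469 to 0.0804 CPM, and since these are estimated counts the floor is approximate. Macrophage markers summed to 5360 to 7150 CPM in control and 6700 to 8510 CPM with Ti, with 8 of 10 at 3 or more counts in all 6 libraries and Mrc1 under 3 counts in each. Mertk was at 0 to 6 counts. Lyz2 made up most of the sum, at 3740 to 5360 CPM, and other markers were uneven between libraries. Csf1r stood at 472, 1460 and 1600 CPM in control and at 1390, 144 and 435 CPM with Ti. Itgam ran from 11.9 to 112 CPM with Ti. Markers of B cells and fibroblasts, 5 and 6 genes, were under 3 counts in every library. Of the mast cell markers 6 of 7 were likewise under 3 counts, the exception being Hdc. T cell markers were near 0 apart from Lck, at 1.11 to 1.69 CPM, and no neutrophil marker reached 3 counts in all libraries. Of 8 osteoclast markers 5 were at 3 or more counts throughout and Calcr was at 0. The osteoclast markers summed to 23.8 to 26.8 CPM in control and 32.3 to 55.3 CPM with Ti, with no overlap, but its members differed. Atp6v0d2 lay higher in each Ti library, at 1.95, 2.69 and 1.85 CPM in control against 7.06, 10.2 and 3.41 CPM. Acp5, Ctsk, Dcstamp and Mmp9 were higher with Ti within each number. Mmp9 was at 3, 0 and 0 counts in control and 254, 2 and 275 with Ti. Ocstamp was lower with Ti within each number, at 9.11, 6.48 and 8.15 CPM against 7.72, 4.79 and 4.20 CPM. Oscar was at 10, 0 and 8 counts in control and 0, 1 and 0 with Ti. Acp5 was low in both libraries numbered 3, at 1.58 CPM in control and 2.93 CPM with Ti, against 8.53 to 23.7 CPM in the other 4. The part of these markers in the differences described here was not tested. In a bulk library, fewer cells of a kind and less RNA per cell cannot be told apart.

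Comparing Ti with PBS asked whether the particles were accompanied by other levels of the genes that make these lipids. No member passed an adjusted p of 0.05 in edgeR (quasi-likelihood test, Benjamini-Hochberg over all 15376 genes). Over all genes, 4 passed (0.026% of those tested), with 2 higher (0.013%) and 2 lower (0.013%), and 0 passed with the replicate block. A count of 0 among 10 genes is near that background. DESeq2, which called 1.9% of all genes, and limma-voom also called 0 of the 10. Ptgs1 alone, lower with Ti, had an unadjusted edgeR p under 0.05, against 6.76% of all genes (3.42% higher, 3.34% lower). With the replicate number as a block, Alox5 joined it, at unadjusted edgeR p-values of 0.0218 for Ptgs1 and 0.0411 for Alox5. Unadjusted DESeq2 p-values were 0.0178 for Ptgs1 and 0.0447 for Alox5. Unadjusted limma-voom p-values were 0.00467 for Ptgs1, 0.0141 for Alox5 and 0.0229 for Alox5ap. The share of all genes at that level was not counted for these other fits, so their values have no background beside them. Of the members 3 had a positive and 7 a negative fold change, with a median of -0.07 on the log2 scale, while over all genes 50.9% were positive, 49.1% were negative and the median was 0.0053. The test has little reach at this size. On simulated data for this comparison with 15376 genes, edgeR recovered 2.67% of 2-fold and 42.3% of 4-fold changes, so a gene that did not pass is not shown to be unchanged.

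Although none passed, the libraries of both groups did not overlap for 3 of the 10 genes. Ptgs2 lay higher in each Ti library than in any control library, and Ptgs1 and Alox5 lay lower, though the main coding transcript of Alox5 overlapped. Over all genes tested, 6.63% lay wholly higher and 6.71% wholly lower, 13.3% together. The plot of CPM by library shows how uneven these 3 genes were within a group. For Ptgs2 the outlying library was control replicate 3, and for Ptgs1 and Alox5 it was Ti replicate 3.

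**Figure D1:**
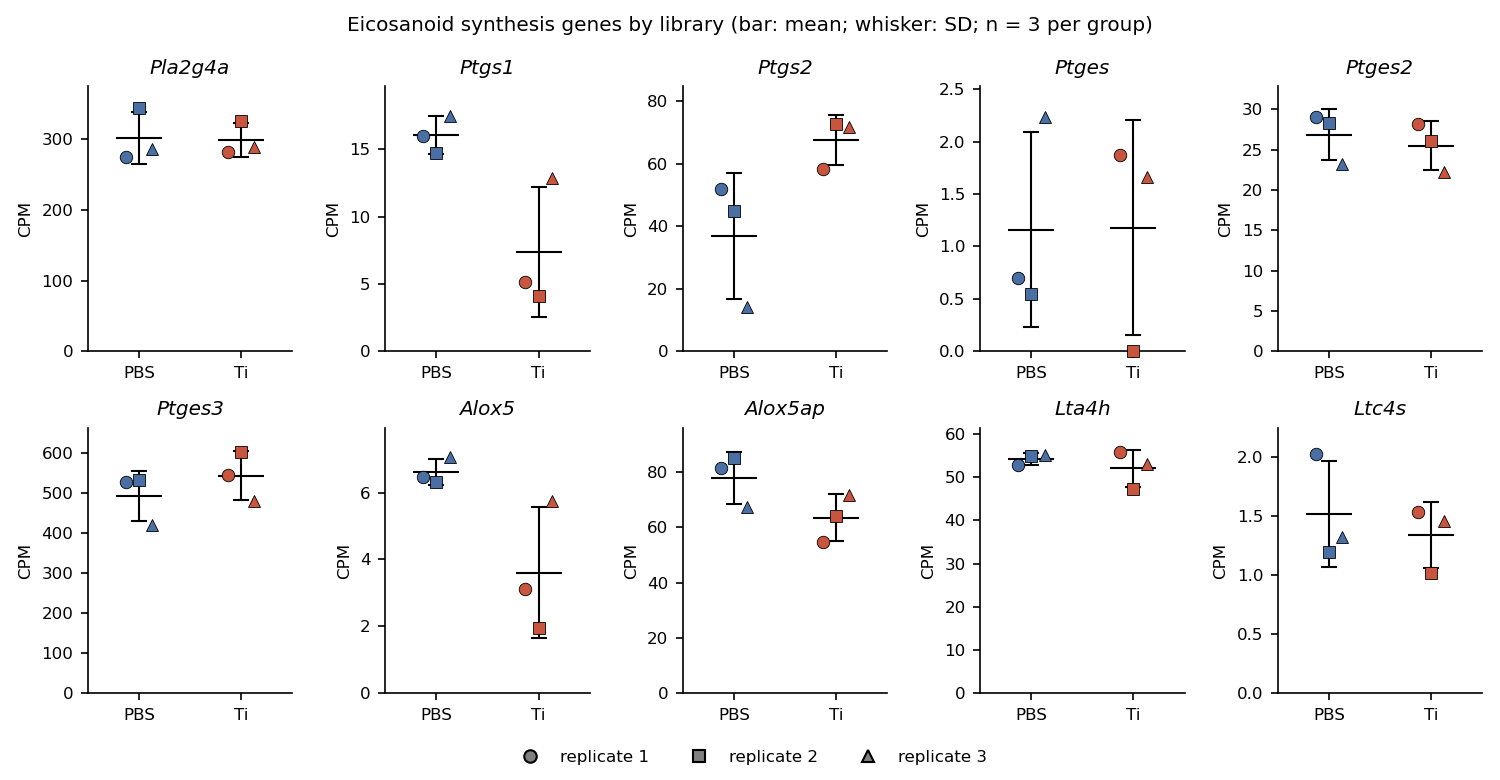
CPM (vertical axis, from 0) of the 10 genes in each of the 3 PBS and 3 Ti libraries; symbols give the replicate number, the long bar the mean and the whisker the SD. The groups do not overlap for Ptgs1, Ptgs2 and Alox5, and the triangle (replicate 3) stands apart in the Ti group of Ptgs1 and Alox5 and in the PBS group of Ptgs2.

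Pla2g4a (ENSMUSG00000056220, GRCm38 chromosome 1, 149829618 to 149961290, minus strand) encodes cytosolic phospholipase A2 alpha, which releases arachidonic acid from membranes when calcium rises. Control replicates 1, 2 and 3 had 275, 343 and 286 CPM, and the Ti replicates 281, 325 and 289 CPM. The groups lay on top of each other, with replicate 2 the highest in both. The log2 fold change was -0.01 ± 0.12 (SE), and 2 SE on either side of it spanned -0.25 to 0.23. Its main coding transcript, Pla2g4a-201, held 81.0% to 89.2% of the gene's counts in every library. A 2-fold difference, 1 on the log2 scale, lies outside that span.

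The cyclooxygenases Ptgs1 and Ptgs2 catalyse the same reaction, and Ptgs1 is known as the constitutive form. Ptgs2 (ENSMUSG00000032487, chromosome 1, 150100031 to 150108227, plus strand) had 51.8, 44.9 and 14.1 CPM in control replicates 1, 2 and 3, while Ti replicates 1, 2 and 3 had 58.4, 72.6 and 71.7 CPM. All 3 Ti libraries lay above all 3 control libraries, but control replicate 1 and Ti replicate 1 were close, and control replicate 3 was far below the others. The means were 36.9 ± 20.1 CPM in control and 67.6 ± 7.93 CPM with Ti (SD, n = 3 per group). The log2 fold change was 0.87 ± 0.46 (edgeR adjusted p = 0.817, range over the alternatives 0.564 to 0.984), and it was 0.49 without control replicate 3 and 0.44 without both libraries numbered 3. Between libraries of the same number the log2 ratio of Ti over control was 0.17, 0.69 and 2.35 for numbers 1, 2 and 3.

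Ptgs1 (ENSMUSG00000047250, chromosome 2, 36230426 to 36252272, plus strand) ran the other way. It stood at 16.0, 14.7 and 17.5 CPM in the control libraries and at 5.15, 4.10 and 12.9 CPM in Ti replicates 1, 2 and 3. The control libraries were close together, and with Ti the first and second replicates were far below them while the third lay just under the lowest control. The means were 16.0 ± 1.42 CPM and 7.37 ± 4.79 CPM (SD, n = 3 per group), so the coefficient of variation was 8.84% in control and 65.0% with Ti. The log2 fold change was -1.12 ± 0.45 (edgeR adjusted p = 0.731, range over the alternatives 0.142 to 0.984). All 3 same-number pairs were lower with Ti, which follows from groups that do not overlap. Without Ti replicate 3 the log2 fold change was -1.79 and without both libraries numbered 3 it was -1.72, with edgeR adjusted p of 0.142 and 0.204. One coding transcript, Ptgs1-201, held 92.1% to 98.4% of the gene in every library, so the gene's value follows that transcript.

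The starts of both genes are shown because the pair lay on opposite sides of their controls. Each line gives the 250 bases before the RefSeq transcript start (GRCm38.p6, plus strand, chr1:150099781-150100030 for Ptgs2 and chr2:36230176-36230425 for Ptgs1). Capitals mark any match, on either strand, to 8 searched motifs.
Ptgs2: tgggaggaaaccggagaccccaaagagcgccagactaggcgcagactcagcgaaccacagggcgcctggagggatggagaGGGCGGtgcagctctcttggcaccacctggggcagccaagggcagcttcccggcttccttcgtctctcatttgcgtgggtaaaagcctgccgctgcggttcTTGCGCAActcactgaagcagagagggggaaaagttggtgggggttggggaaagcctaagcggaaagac
Ptgs1: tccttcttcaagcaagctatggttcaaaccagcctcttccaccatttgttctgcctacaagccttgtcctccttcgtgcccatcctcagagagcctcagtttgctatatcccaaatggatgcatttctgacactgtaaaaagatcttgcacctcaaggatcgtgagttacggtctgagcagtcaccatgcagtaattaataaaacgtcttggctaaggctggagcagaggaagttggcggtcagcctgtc
Inflammatory factors were represented by NF-kB, by C/EBP, written TTNCGNAA, and by AP-1, written TGANTCA. The cAMP response half-site was written TGACG, and the E-box, a site of basic helix-loop-helix factors, was written CACGTG. Sp1, a factor of GC-rich promoters, was written GGGCGG, and the early growth response site GCGNGGGCG. The TATA box, which positions the start of transcription, was written TATAAA. The search took both strands of 300 bases, 250 before the start and 50 after it. In the Ptgs2 sequence the capitals are an Sp1 match at -170 to -165 and a C/EBP match at -69 to -62, counted from the start with bases before it negative. After the start, a half-site at 14 to 18 and an E-box at 17 to 22 overlapped each other. Of the 32851 promoters in the table, 2.47% held the C/EBP motif, 7.15% the E-box, 20.8% the half-site and 35.7% the Sp1 motif. None of the 8 was found in the Ptgs1 window. A first search with a looser C/EBP pattern, in the 250 bases before the start, matched 36.8% of promoters and gave 2 C/EBP matches in Ptgs2, and the pattern and window were changed after this was seen. A match is a run of letters and says nothing by itself of binding.

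To compare the 2 cyclooxygenases with each other, counts were divided by length, giving TPM, a level per unit of length that sums to 1000000 in each library and does not favour the longer transcript. On this scale Ptgs2 made up 66.5%, 64.7% and 32.5% of the sum of both genes in control replicates 1, 2 and 3. With Ti it made up 87.6%, 90.1% and 76.4%. All Ti libraries lay above all control libraries, and only in control replicate 3 was Ptgs1 the more abundant of the pair. Which of the 2 leads within a library depends on the rescaling by genomic span, which is approximate. The level of Ptgs2 was 0.481 to 1.98 times that of Ptgs1 in control and 3.24 to 9.11 times with Ti. The mean share was 54.6% ± 19.1 in control and 84.7% ± 7.29 with Ti (SD, n = 3 per group), a difference of 30.1 percentage points. Since Ptgs2 lay wholly higher and Ptgs1 wholly lower, the share had to separate the groups, so it is a description and no test is given. The difference was 19.1 points without control replicate 3 and 23.2 points without both libraries numbered 3. It was 33.4 points without the rescaling by genomic span.

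**Figure D2:**
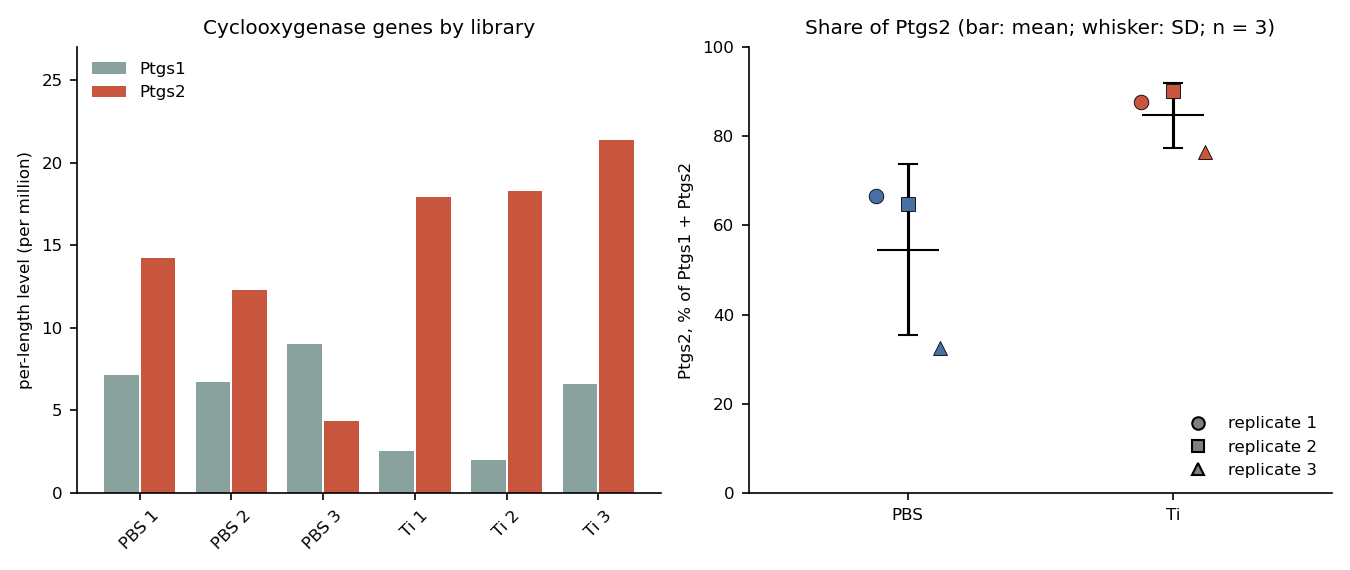
Left, per-length level (TPM, axis from 0) of Ptgs1 and Ptgs2 in each library; right, Ptgs2 as a percentage of the sum of both, with each library as a symbol, the mean as a bar and the SD as a whisker. In the Ti libraries the share sits between 76.4% and 90.1%, above the 32.5% to 66.5% of the PBS libraries.

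The next 3 genes carry the name of prostaglandin E synthase. Ptges (ENSMUSG00000050737, chromosome 2, 30889471 to 30929863, minus strand), the membrane-bound form that is usually coupled to Ptgs2, was the scarcest member. It stood at 0.703, 0.549 and 2.23 CPM in control and at 1.87, 0 and 1.66 CPM in Ti replicates 1, 2 and 3, which are 45, 22 and 93 counts against 87, 0 and 80. The groups overlapped fully, and the 0 in Ti replicate 2 allows a level of up to 0.0804 CPM by counting error. An estimated count of 0 can also be a failed assignment of reads. The log2 fold change of 0.03 ± 1.26 carried no direction. With a block for the replicate number it was -0.52, and it lay between -0.46 and 0.91 with 1 library left out at a time. A processed pseudogene, Gm13400, lies inside its span on the same strand at 0.281 to 0.977 CPM, so reads could be shared between them.

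Ptges2 (ENSMUSG00000026820, chromosome 2, 32395896 to 32405772, plus strand), a membrane-associated protein assigned to the same reaction, stood at 29.1, 28.3 and 23.2 CPM in control and at 28.2, 26.1 and 22.2 CPM with Ti. The libraries ranked the same way in both groups and overlapped, with a log2 fold change of -0.08 ± 0.16. Ptges3 (ENSMUSG00000071072, chromosome 10, 128058954 to 128077272, plus strand) encodes p23, a co-chaperone of HSP90 to which cytosolic prostaglandin E synthase activity has been ascribed. It stood at 527, 532 and 421 CPM in control and at 545, 603 and 481 CPM with Ti, overlapping, with a log2 fold change of 0.14 ± 0.14. Its main transcript matches 480 bases of the processed pseudogene Ptges3-ps on chromosome 6 at 100% identity. That pseudogene stood at 111 to 137 CPM, so how reads were divided between the 2 is uncertain. Their sum was 656, 659 and 544 CPM in control and 677, 740 and 593 CPM with Ti, which also overlapped.

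In the lipoxygenase branch, Alox5 (ENSMUSG00000025701, chromosome 6, 116410077 to 116461178, minus strand) encodes 5-lipoxygenase, the enzyme that commits arachidonic acid to leukotrienes. It stood at 6.46, 6.31 and 7.07 CPM in control and at 3.11, 1.96 and 5.76 CPM in Ti replicates 1, 2 and 3. As with Ptgs1, the control libraries were tight, Ti replicates 1 and 2 were far below them and Ti replicate 3 lay just under the lowest control. The means were 6.61 ± 0.404 CPM and 3.61 ± 1.95 CPM (SD, n = 3 per group), with a log2 fold change of -0.87 ± 0.40 (edgeR adjusted p = 0.773, range over the alternatives 0.323 to 1). Without Ti replicate 3 it was -1.38, and without Ti replicate 2 it was -0.58. The ratio within numbers was -1.05, -1.69 and -0.30 on the log2 scale.

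The start of Alox5 is shown because it shared this layout over the libraries with Ptgs1 and the human promoter is known for Sp1 sites. The line gives the 250 bases before the RefSeq start (GRCm38.p6, minus strand, chr6:116461179-116461428), with capitals as above.
Alox5: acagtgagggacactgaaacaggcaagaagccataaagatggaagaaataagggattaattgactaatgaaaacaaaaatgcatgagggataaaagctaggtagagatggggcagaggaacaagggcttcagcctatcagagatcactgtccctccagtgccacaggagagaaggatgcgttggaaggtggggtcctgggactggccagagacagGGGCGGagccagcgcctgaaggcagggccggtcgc
The capitals are a single Sp1 match at -35 to -30, and none of the other 7 motifs was found in the 300 bases. Of the 10 members 9 had an entry in the promoter table. Ptges had 2 Sp1 matches and Ptges3 had 4. A half-site was also found in Ptges3 and an E-box in Ptges2, so the Sp1, half-site and E-box motifs were not particular to Ptgs2. The C/EBP motif, whose letters were revised after a first search, matched only Ptgs2 among the 9. Pla2g4a had a TATA box match in a single window and no match in its other window. Like Ptgs1, Lta4h and Ltc4s had no match to any searched motif.

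Part of Alox5 was not coding RNA. Alox5-201, the main coding transcript, stood at 309, 205 and 150 rescaled counts in control and at 105, 43.4 and 185 in Ti replicates 1, 2 and 3. Scaled to library size this was 4.83, 5.12 and 3.59 CPM against 2.26, 1.16 and 3.85 CPM, so Ti replicate 3 lay above control replicate 3 and this transcript overlapped between groups. The separation of the gene's sums therefore rests on the retained-intron transcript Alox5-204, at 3.12 CPM in control replicate 3 and 1.71 CPM in Ti replicate 3. Transcripts annotated with a retained intron made up 25.1%, 18.5% and 49.2% of the gene in control and 27.4%, 40.6% and 33.2% with Ti. Across all genes the retained-intron share was 5.30% to 6.37% in every library. With coding transcripts alone the log2 fold change of Alox5 was again -0.87, with a wider SE of 0.48.

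**Figure D3:**
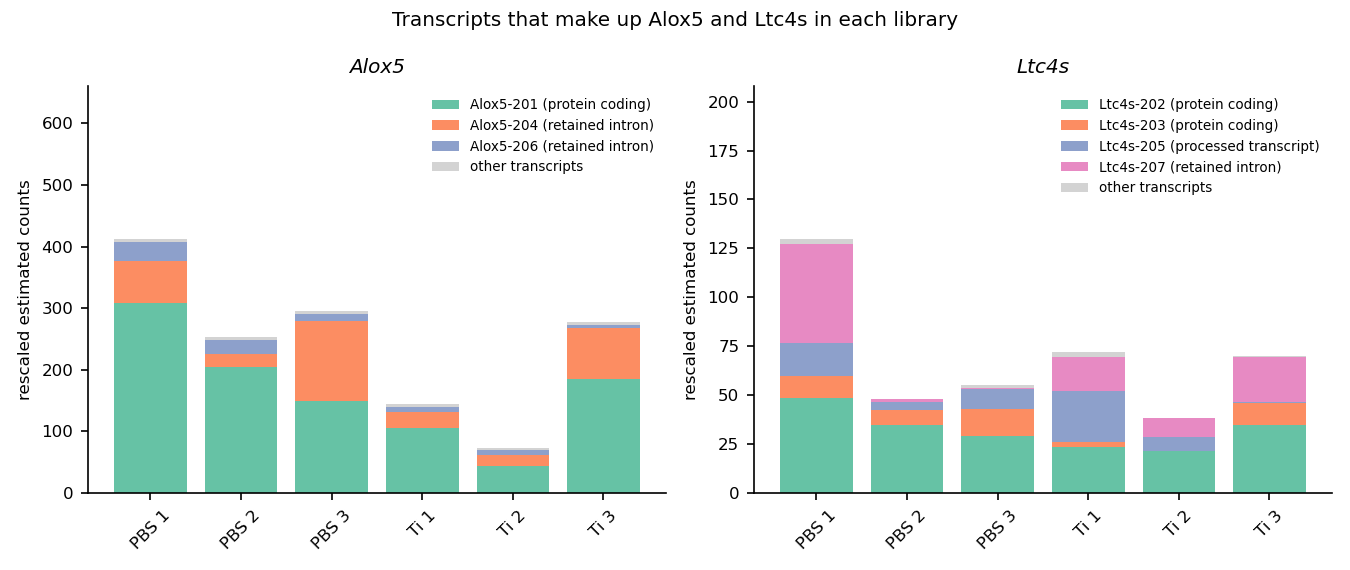
Rescaled estimated counts (vertical axis, from 0) of the transcripts that reach 10% of Alox5 (left) or Ltc4s (right) in at least 1 library, stacked per library with the rest in grey; heights are not scaled for library size. Alox5-204 is largest in PBS replicate 3, at 130 counts, and Ltc4s-207 in PBS replicate 1, at 50.3 counts.

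Alox5ap (ENSMUSG00000060063, chromosome 5, 149264767 to 149288153, plus strand) encodes the 5-lipoxygenase activating protein, which presents arachidonic acid to the enzyme. It stood at 81.2, 84.8 and 67.1 CPM in control and at 54.7, 64.0 and 71.6 CPM with Ti. Ti replicate 3 lay above control replicate 3, so the groups overlapped, while the first and second Ti libraries lay under all controls. The log2 fold change was -0.29 ± 0.15 (edgeR adjusted p = 0.815, range over the alternatives 0.422 to 1), and -0.48 without both libraries numbered 3. On a per-length scale the activating protein far exceeded its enzyme, at 80.1 ± 5.36 against 3.37 ± 0.155 TPM in control (SD, n = 3).

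The enzymes that use leukotriene A4 overlapped between groups. Lta4h (ENSMUSG00000015889, chromosome 10, 93453411 to 93484875, plus strand), the hydrolase that makes leukotriene B4, stood at 52.7, 55.0 and 55.2 CPM in control and 55.7, 47.2 and 53.1 CPM with Ti. Its log2 fold change was -0.06 ± 0.11, with 2 SE on either side spanning -0.28 to 0.15. Ltc4s (ENSMUSG00000020377, chromosome 11, 50236461 to 50238616, minus strand), which joins leukotriene A4 to glutathione, stood at 2.03, 1.20 and 1.32 CPM in control and at 1.54, 1.02 and 1.46 CPM with Ti. Its log2 fold change was -0.18 ± 0.32, 0.092 without control replicate 1 and -0.50 ± 0.35 with coding transcripts alone. The retained-intron transcript Ltc4s-207 made up 38.6% of the gene in control replicate 1 and 0.636% in control replicate 3. The antisense gene Gm26542 overlaps Ltc4s at 0.416 to 1.30 CPM. The labels do not say whether the libraries kept the strand, so it is not known whether reads where these 2 genes overlap can be told apart.

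**Figure D4:**
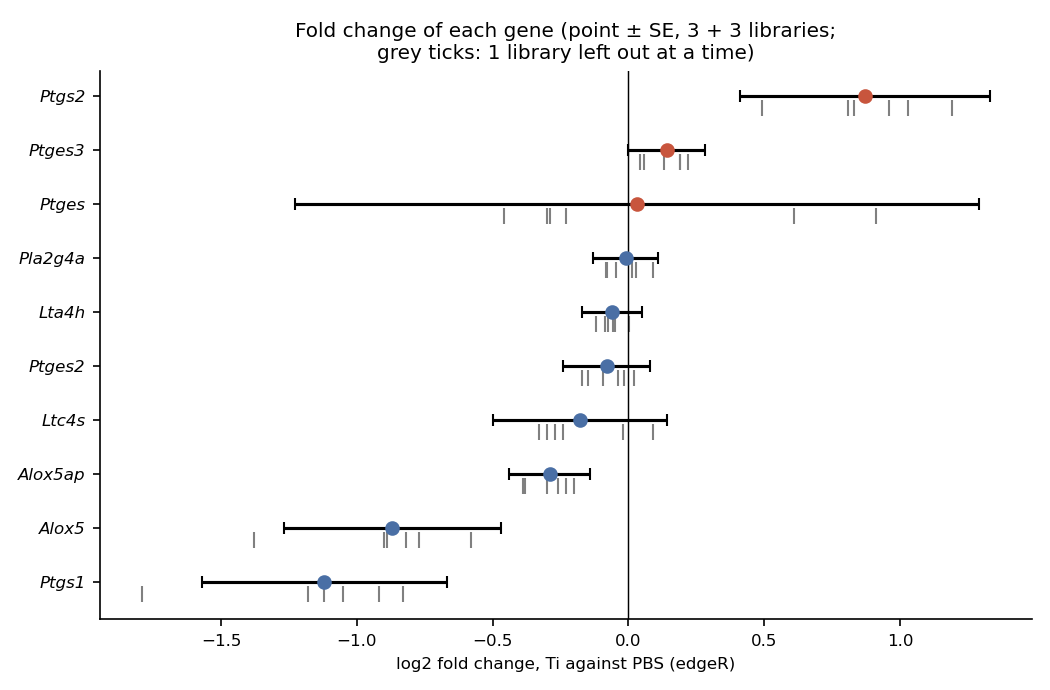
Log2 fold change of Ti against PBS for each gene (points, edgeR, 3 libraries per group) with its SE as a horizontal bar; grey ticks give the value with 1 library left out at a time. Ptgs1, Alox5 and Alox5ap stay below 0 and Ptgs2 and Ptges3 above 0 in each of those fits, and Ptges spans -0.46 to 0.91.

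Per unit of length, Ptges3 was the most abundant member in control at 313 ± 20.0 TPM, then Pla2g4a at 136 ± 15.1, Alox5ap at 80.1 ± 5.36 and Lta4h at 38.1 ± 4.06 (SD, n = 3). These 4 held the same ranks with Ti and no neighbours among them overlapped in control. The order between genes rests on the approximate rescaling by genomic span. Ptgs2 at 10.3 ± 5.25, Ptgs1 at 7.63 ± 1.21 and Ptges2 at 7.29 ± 0.383 followed, and neighbours in this run overlapped. Alox5 at 3.37 ± 0.155 and Ltc4s at 2.88 ± 0.760 overlapped as well, and Ptges was lowest at 0.452 ± 0.358. With Ti, Ptgs1 stood at 3.72 ± 2.52 TPM, below Ptges2 at 6.98 ± 0.988, and Ltc4s at 2.60 ± 0.765 stood above Alox5 at 1.90 ± 0.871, but both pairs overlapped between libraries.

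The rest of the pathway was read from 8 other lists, of which 73 genes were tested and 28 were too low. None passed the adjusted threshold in edgeR. At an unadjusted p under 0.05, 9 were higher and 3 lower, where all genes gave 3.42% and 3.34%. DESeq2 called 3, Dagla, Pla2g5 and Plaa, where it called 1.9% of all genes. The median log2 fold change was -0.02. The groups did not overlap for 20 of the 73, 13 higher and 7 lower with Ti, against 13.3% of all genes. The lists were chosen with earlier results of these data known, so a difference from all genes may be built in. These counts are a description and no test.

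Among the 22 tested genes that release or recycle arachidonic acid, 12 had a positive and 10 a negative fold change, against 50.9% and 49.1% of all genes. Pla2g5, a secreted phospholipase A2 of macrophages, stood at 8.96, 10.8 and 7.65 CPM in control and at 18.8, 16.8 and 16.6 CPM with Ti. The groups were well apart, with a log2 fold change of 0.93 ± 0.18 (edgeR adjusted p = 0.288). Its second coding transcript, Pla2g5-203, made up 0.5%, 7.87% and 31.6% of the gene in control replicates 1, 2 and 3. In the Ti libraries it made up 0.18% to 0.316%. Plaa, a phospholipase A2 activating protein, stood at 70.3, 84.5 and 99.5 CPM against 130, 138 and 121 CPM, with a log2 fold change of 0.61 ± 0.15 (edgeR adjusted p = 0.421). Acsl4, the acyl-CoA synthetase that prefers arachidonic acid, had 0.31 ± 0.12, and Lpcat3, which returns it to phospholipids, -0.23 ± 0.52, neither past the threshold.

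Dagla, a diacylglycerol lipase, was at 68, 25 and 134 counts in control and 2, 1 and 3 counts with Ti. That is a ratio of control over Ti of 34.3 on library size (95% exact interval 15.5 to 94.3, for counting error only and not for the spread between libraries), and edgeR gave an adjusted p of 0.218. With 1 to 3 counts in a Ti library the fitted log2 value depends on the prior count and is not given.

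Other terminal prostanoid synthases showed no gene with separate groups among the 5 tested, where 13.3% of all genes had separate groups. Hpgds, the prostaglandin D synthase of blood cells, stood at 7.60, 14.6 and 30 CPM in control and at 12.3, 14.2 and 25.4 CPM with Ti, highest in the library numbered 3 of each group. Tbxas1, thromboxane synthase, stood at 0.616 to 1.16 CPM in all 6 libraries. Ptgds was at 0 counts in every library and Ptgis, prostacyclin synthase, at 0 in 5 and 2 in Ti replicate 1, and a count of 0 allows up to 0.0469 to 0.0804 CPM across the libraries. Of 14 other lipoxygenase and leukotriene genes 10 were too low to test, none of them over 0.215 CPM, and they include Alox15 and Alox12. Mgst3, a microsomal glutathione transferase related to Ltc4s, stood at 18.2, 19.1 and 24.7 CPM in control and at 10.5, 13.2 and 14.1 CPM with Ti, apart in every library, with a log2 fold change of -0.71 ± 0.19 (edgeR adjusted p = 0.478). Its relative Mgst2 had -0.27 ± 0.16.

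Of 8 tested genes of breakdown and transport, 1 had a positive and 7 a negative fold change, against 50.9% and 49.1% of all genes. Hpgd, which inactivates prostaglandins, stood at 8.43, 6.03 and 12.1 CPM in control and at 1.54, 2.14 and 6.68 CPM in Ti replicates 1, 2 and 3, lower within each number. Its log2 fold change was -1.36 ± 0.61 (edgeR adjusted p = 0.763), and Ti replicate 3 lay within the control range. Ptgr1, an enzyme that acts on leukotriene B4 and prostaglandins, had -0.55 ± 0.28 and Abcc1, an exporter of leukotriene C4, 0.35 ± 0.11, at 254, 224 and 248 CPM against 333, 278 and 314 CPM.

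Receptors were few: 6 of 16 were tested. Cysltr1 for cysteinyl leukotrienes stood at 14.1 to 19.2 CPM and Ptger4 for prostaglandin E2 at 15.4 to 27.9 CPM over all libraries, both overlapping. Ptger2 was at 0.0997 to 0.406 CPM in control and 0.291 to 0.858 CPM with Ti, and Ltb4r1 at 2 to 19 counts in all libraries and not tested. Ptgir, the prostacyclin receptor, lay higher in each Ti library, at 2.49, 2.82 and 2.85 CPM against 3.41, 3.21 and 4.47 CPM, with a log2 fold change of 0.45 ± 0.22 (edgeR adjusted p = 0.800).

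Genes known to act on Ptgs2 or Ptges were tested in all 14 cases, and 9 had a positive fold change, against 50.9% of all genes. The groups were separate for 4 higher and 1 lower and overlapped for 9, where all genes gave 6.63% wholly higher and 6.71% wholly lower. The lower one, named after its value was seen, was Celf2, an RNA-binding protein, at 257, 235 and 255 CPM against 211, 113 and 216 CPM. Egr1, an immediate early factor known at the Ptges promoter, stood at 73.8, 56.2 and 47.3 CPM in control and at 187, 95.6 and 100 CPM with Ti. It lay apart in every library, with a log2 fold change of 1.11 ± 0.32 (edgeR adjusted p = 0.521). The early growth response site was not found in the Ptges window, and Ptges itself overlapped between the groups. Like Egr1, Cebpb and Cebpd, factors that bind C/EBP motifs, lay higher in each Ti library, with log2 fold changes of 0.35 ± 0.09 and 0.60 ± 0.18. Cebpb stood at 143, 147 and 133 CPM against 179, 172 and 190 CPM. Among kinases that phosphorylate the lipases or 5-lipoxygenase, Camk2d stood at 17.2, 19.9 and 23.6 CPM against 31.4, 28.0 and 35.9 CPM, with a log2 fold change of 0.65 ± 0.17 (edgeR adjusted p = 0.468) that was 0.17 with coding transcripts alone. Of the 6 partners of p23, Hsp90aa1 had 0.31 ± 0.12 with separate groups, and none passed.

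**Figure D5:**
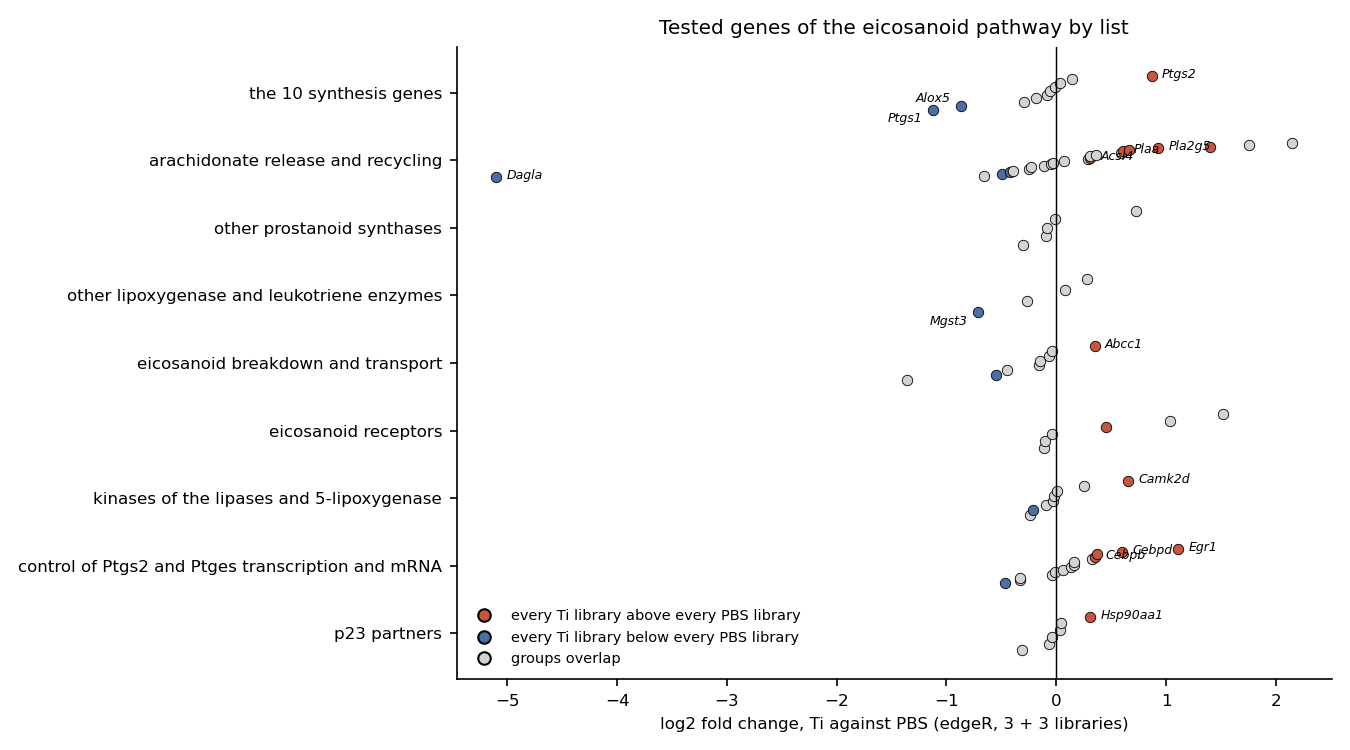
Log2 fold change of Ti against PBS (horizontal axis, edgeR, 3 libraries per group) for every tested gene of the 10 synthesis genes and of the 8 other lists, 1 point per gene; colour gives whether the groups overlap, and the far value of Dagla depends on the prior count. No point passed an adjusted p of 0.05; the names are Ptgs1, Ptgs2, Alox5 and genes chosen by rule that had an unadjusted p under 0.05.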

How the data were processed

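Total RNA of RAW264.7 cells was sequenced in 6 libraries, and each sample was grouped by its title. Each deposited file holds whole-number estimated counts for 187351 transcripts. The submitters' processing notes list HISAT2, StringTie and the build mm9 and give no versions, and a counting tool is not named in the sources used here. Of the transcripts, 141862 match the transcripts of GENCODE vM21 one for one, so names and coordinates are on GRCm38. The other 45489 assembled transcripts have no gene and were left out.

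Deposited values rose with genomic span (log-log slope 0.972 over 32351 coding transcripts), so each was multiplied by exon length over span (slope then 0.336, so the correction is approximate), summed per gene and rounded. Levels compared between genes are TPM, the rescaled counts over exon length. The main test was edgeR 4.0.16 in R 4.3.3: TMM, filterByExpr, the quasi-likelihood test and Benjamini-Hochberg adjustment at 0.05. Alternatives used DESeq2 1.42.0 and limma 3.58.1. Simulated counts tested both tools; of edgeR's calls 11.2% were false, of DESeq2's 43.2%. Near copies were sought with BLAST 2.17.0 (at least 90% identity over 200 bases).

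The members and lists were chosen with earlier results of these data known, and the C/EBP motif and the search window were revised after a first search had been seen. Besides the members, the rule named the 3 tested genes with the smallest p of each list and 12 genes in any case; not all are described. Same-numbered libraries deviated together across genes (correlations 0.11, 0.144 and 0.266 against -0.17 to 0.0402 for other pairs), which met the rule for pairing by number (every same-number correlation over 0.1). No label states a shared origin. The fit without the block was kept as the main one, and the SEs printed above are from it. With the block the SE of Pla2g4a was 0.06 in place of 0.12, and that of Ptgs2 was 0.5 in place of 0.46. With that block 0 genes passed in place of 4, and no call on a member changed. No 2 libraries agreed within sampling noise.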

Additional observations from a re-analysis of the deposited data

How the results depend on the processing

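No member passed the threshold under any of the 16 alternatives. Without both libraries numbered 3, and with protein-coding transcripts only, were chosen after seeing the data. The signs of Ptgs1, Ptgs2, Ptges3, Alox5 and Alox5ap held in all of them. Ptges was -0.56 with voom and -0.52 with the replicate block, and -0.46 to 0.91 with 1 library left out. Leaving out 1 library also turned the sign of values near 0, over ranges of -0.082 to 0.089 for Pla2g4a, -0.17 to 0.019 for Ptges2, -0.12 to 0.00037 for Lta4h and -0.33 to 0.092 for Ltc4s. The causes were not tested. With the replicate number as a block, Ptgs1 was at -1.31, Alox5 at -1.0 and Ptgs2 at 1.05, and the block changed no call on a member.

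Over all genes, 2 higher and 2 lower in edgeR became 163 and 129 with DESeq2, 5 and 5 with voom, 0 and 0 with the replicate block or without both libraries numbered 3, 1 and 1 with coding transcripts, 1 lower with no filter, and 1 to 8 higher and 0 to 7 lower with 1 library left out. Of the 30 named pathway genes tested outside the 10, 21 kept their sign in every alternative and 9 did not; the fold of 6, among them Hpgd (-2.26 to -1.0) and Dagla, moved by over 1.5 times. Ptges had 0 to 93 counts per library, and the reason for that spread was not tested.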
